A study of Mus musculus with 8 samples.

Results

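The nuclear genes of the mitochondrial respiratory chain were followed in mouse embryos with and without a mutated copy of Tbx5, in the tissue named posterior second heart field (pSHF). Members were chosen by name, with earlier results of these data known. They were all genes whose symbol on the array began with Nduf followed by a, b, c, s or v, with Uqcr, with Cox4 to Cox8 or with Atp5, and the genes Sdha to Sdhd. This rule found 86 of 27827 gene names, measured by 125 of 41174 probes. By complex they were 39 genes of complex I, 4 of complex II, 7 of complex III, 19 of complex IV and 17 of complex V. The rule also took in names that are not those of subunits. Cox4nb, now named Emc8, belongs to a complex of the endoplasmic reticulum and lies beside Cox4i1. Ndufaf1 and Ndufaf2 are assembly factors of complex I, and Cox7a2l is a supercomplex factor. Atp5s and Atp5sl, now named Dmac2l and Dmac2, were counted with complex V by their array names only. Ndufa4 carries a complex I name and is now counted with complex IV. They were kept, and the median difference over the 76 tested subunits without them was 0.21 on the log2 scale, against 0.19 over all 82 tested members.

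Mitochondria make most of a beating heart's ATP. Complex I (NADH dehydrogenase) and complex II (succinate dehydrogenase) feed electrons to ubiquinone, complex III passes them to cytochrome c, complex IV (cytochrome c oxidase) gives them to oxygen, and complex V (ATP synthase) uses the proton gradient to make ATP. A few subunits are encoded in mitochondrial DNA and all others in the nucleus, so that the chain is built from products of both genomes. In the embryo, the chain matures while the heart begins to work. Tbx5 is a T-box transcription factor of the heart field and the limb, and the pSHF is the mesenchyme behind the heart from which the atrial septum arises.

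Of the 8 arrays, 4 held pSHF RNA of embryos labelled Tbx5-/+ (heterozygous, written Tbx5+/- here) and 4 that of wild-type embryos, all at E9.5, from a mixed genetic background after hormone-induced ovulation of the mothers. The labels number the samples 1, 5, 6 and 7 in each group. Numbers 1 and 5 carry array label 1, and numbers 6 and 7 array label 2, and each label is 1 slide with both groups on it. Each sample was a pool of RNA, described as independent of the others. The number of embryos in a pool, and whether pools came from separate litters, are not given in the sources used here. The neural tube was cut away through the foregut, so that some foregut may remain. In such tissue fewer cells of a type and less RNA per cell cannot be told apart.

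Levels below are log2 values after variance stabilization (VSN), and a difference is Tbx5+/- minus wild-type on that scale. The Tbx5 probe with the stronger signal read 8.90, 9.62, 9.05 and 8.51 in Tbx5+/- 1, 5, 6 and 7, and 11.36, 11.45, 10.31 and 11.43 in wild-type 1, 5, 6 and 7, with no overlap between the groups. The other Tbx5 probe differed by -0.15 (SE 0.32). All 10 pSHF markers were measured well above background in at least 1 group. Their median difference was -0.59, and their summed level was 14.6 to 17.0 in Tbx5+/- and 15.5 to 16.0 in wild-type samples. At an unadjusted p under 0.05 in limma, 4 of them, Tbx5 included, were lower (against 15.4% of all genes) and 0 were higher (against 4.11%). Without overlap between the groups, 3 were lower (against 7.63% of all genes). The part of this in the results below was not tested. The share of spots well above background was 45.0% to 52.8% in Tbx5+/- and 50.9% to 63.6% in wild-type samples. Tbx5+/- 1 and Tbx5+/- 6 each stood apart from the other Tbx5+/- arrays, on opposite sides. On the leading principal component Tbx5+/- 1 scored 37.2, where Tbx5+/- 5, 6 and 7 scored -26.1, -112.1 and -48.7 and the wild-type arrays 10.04 to 52.4. Tbx5+/- 6 also had the lowest share of spots well above background (45.0%). For the results that depend most on Tbx5+/- 1, values without it are given too. Tbx5+/- 1 was singled out from these same data. The p-values without it, here and for single genes, thus describe the dependence on this array and are no separate test.

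No respiratory chain gene passed an adjusted p of 0.05 in limma (0 of 82 tested, where 0% of all 13950 genes tested were called). The smallest adjusted p of a member was 0.111, for a dim probe of Cox4nb, and the smallest of any probe was 0.0924. At an unadjusted p under 0.05, 4 members were lower in Tbx5+/- (4.88%, against 15.4% of all genes) and 6 were higher (7.32%, against 4.11% of all genes). The lower members were Ndufa11, Sdhc, Ndufa10 and Sdha, and the higher ones Ndufb11, Ndufs4, Ndufa8, Uqcrh, Atp5f1 and Cox6c. The groups did not overlap for 2 members in the lower direction (2.44%, against 7.63% of all genes) and for 0 in the higher direction (against 0.918%). SAM, the test named in the study's methods, called 1 of the 44 members left by the study's filter. This was Cox4nb, which was lower (q = 0.0365). On that filter SAM called 7.31% of all genes lower and 0.160% higher, and limma, which also called Cox4nb alone among the members, called 3.54% lower.

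The members as a whole lay above the bulk of the array. Their median difference was 0.19, that of all genes tested was -0.13, and 65 of 82 members (79.3%) lay above the median of all genes. Without Tbx5+/- 1 the members' median was 0.34 and that of all genes -0.07. Without Tbx5+/- 6 these medians were 0.14 and -0.11. Scaling moved both medians. With processed signals scaled to the 75th percentile of each array the members' median was 0.55 and that of all genes 0.18, and 41 members were higher (against 18.2% of all genes) and 1 lower (against 5.95%) at an unadjusted p under 0.05. Relative to all genes, the members' median was 0.32 with VSN, 0.37 with percentile scaling and 0.06 with quantile normalization. The members were also bright. When the genes tested were divided by brightness into 5 equal classes, 60 of the 82 members lay in the brightest class. Within it the median difference was 0.28 for the members and 0.10 for the other genes, and 45 of the 60 lay above the median of the class. In the class next to it, 10 of 15 members did. In the dimmer classes that held members, 2 of 4 and 0 of 3 did.

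**Figure D1:**
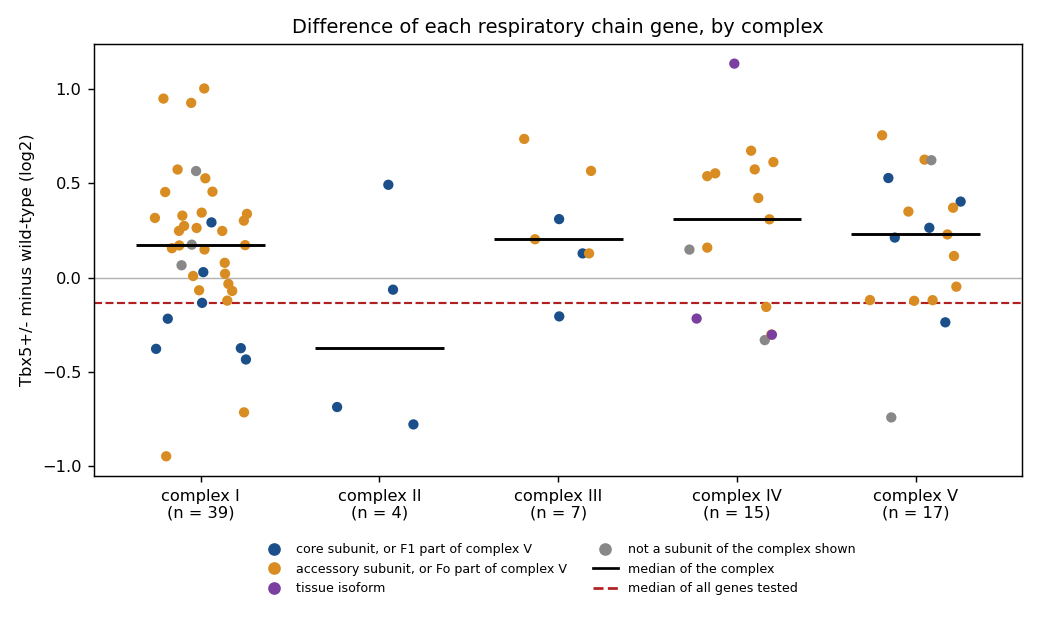
Difference between the groups (log2, vertical axis) for the brightest tested probe of each of the 82 tested members, by complex. Points are genes, black lines the medians of the complexes, and the dashed line the median of all genes tested (-0.13). Most points of complexes I, III, IV and V lie above the dashed line, and the lowest members are Ndufa11 (-0.95), Sdhc (-0.78) and Atp5sl (-0.74).

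The members' values were spread widely among the Tbx5+/- arrays. Relative to all genes, the median deviation of the 82 members from the wild-type mean was -0.07 in Tbx5+/- 1, 0.32 in Tbx5+/- 5, 0.56 in Tbx5+/- 6 and 0.37 in Tbx5+/- 7. In wild-type 1, 5, 6 and 7 it was -0.04, 0.05, 0.03 and -0.04. Tbx5+/- 1 thus read below every wild-type array, and the other Tbx5+/- arrays read above all of them. By complex, the same value for complex IV was -0.05, 0.56, 0.96 and 0.44 in Tbx5+/- 1, 5, 6 and 7, and that for complex II was -0.06, -0.16, -0.54 and -0.24. In Tbx5+/- 5, 6 and 7, complex II thus lay below all genes and complex IV above them. Tbx5+/- 1 was the lowest of the 4 Tbx5+/- arrays for 65 of 82 members, and Tbx5+/- 6 was the highest for 47.

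Without Tbx5+/- 1, 25 members were higher at an adjusted p under 0.05 in limma (30.5%, against 9.34% of all genes) and 4 were lower (4.88%, against 15.1%). The higher ones were 11 genes of complex I, 2 of complex III, 6 of complex IV and 6 of complex V. Among them were Ndufs4, Ndufb11, Uqcrh, Atp5f1 and Cox7a1. The lower ones were Ndufa11, Sdha, a dim probe of Cox4nb and 1 of the 3 probes of Ndufv3. These calls rest on leaving out an array that was chosen after the data were seen. Leaving out any other array gave 0 member calls (without wild-type 1, 1.50% of all genes were called lower). With array weights, which gave Tbx5+/- 1 the lowest weight, 34 members were higher (against 18.1% of all genes) and 11 lower (against 34.5%).

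A measure of probe position moved with the members' values. In 3799 pairs of probes of the same gene, the 3′ probe read above the 5′ probe by a gap of 1.58, 1.97, 2.12 and 2.03 in Tbx5+/- 1, 5, 6 and 7, and of 1.56, 1.68, 1.77 and 1.64 in wild-type 1, 5, 6 and 7. The 3 arrays with the highest gaps were thus those with the highest members' values, and Tbx5+/- 1 had a gap within the wild-type range. With the gap as a covariate the members' median was -0.12, 0.05 above that of all genes, with 3 members lower (against 13.6% of all genes) and 0 higher (against 1.10%) at an unadjusted p under 0.05. Because only Tbx5+/- 1 among the Tbx5+/- arrays had a gap in that range, this fit rests largely on it. It can hardly separate the gap from genotype, and the single-gene values with the covariate below share this limit. Without Tbx5+/- 1 the gaps of the groups did not overlap, so gap and genotype cannot be told apart there. The part of RNA quality or labelling in the members' difference was not tested.

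**Figure D2:**
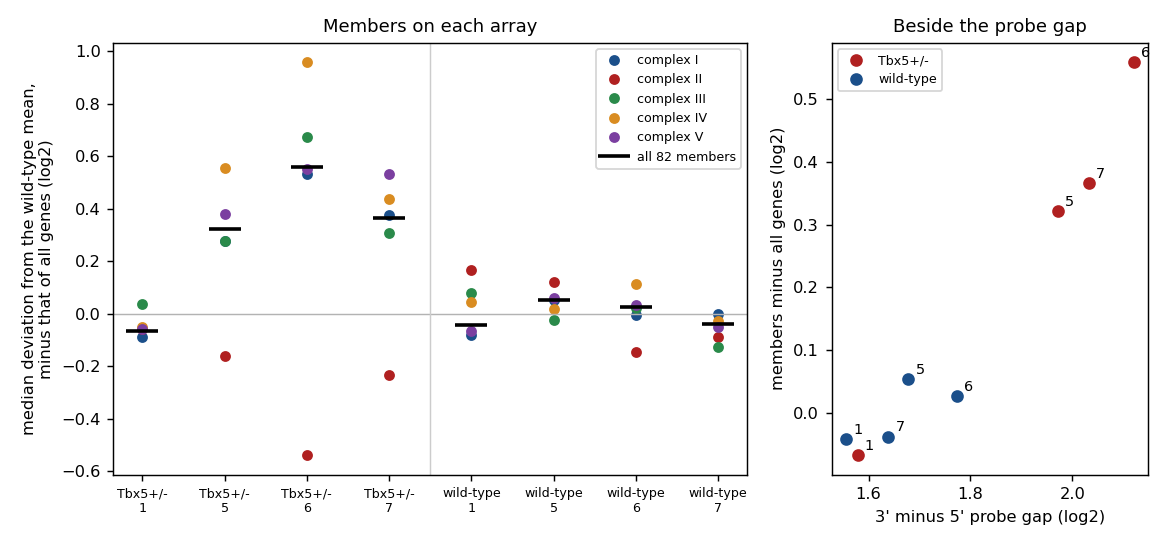
Left, the median deviation of the members of each complex from the wild-type mean, minus that of all genes (log2), on each array; black bars show all 82 members. Right, the same value for all members against the gap between 3′ and 5′ probes (log2), with embryo numbers beside the points. Tbx5+/- 5, 6 and 7 have the 3 highest values (0.32, 0.56 and 0.37) and the 3 largest gaps, and Tbx5+/- 1 (-0.07) lies with the wild-type arrays.

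Within array label 1 (numbers 1 and 5) the members' median was 0.14 above that of all genes, and within array label 2 (numbers 6 and 7) it was 0.56 above. With the replicate number as a block, 4 members passed an adjusted p of 0.05 in limma, all lower (4.88%, against 13.4% of all genes): Ndufa11, Sdha, Atp5sl and the dim probe of Cox4nb. In this fit 0 members were higher (against 0.538% of all genes). Across the 8 arrays, after each group's mean was removed, the median correlation between pairs of the 82 members was 0.551, and that between pairs of all genes was 0.073; all pairs share the same 8 arrays.

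Markers of other cells that the dissection could hold were read beside this. The summed level of 14 cardiomyocyte markers, all tested, was 18.3 to 19.6 (log2) in Tbx5+/- and 18.7 to 19.3 in wild-type samples, and 0 of them passed an unadjusted p under 0.05. Endothelial markers were summed at 14.2 to 14.6 in Tbx5+/- and 14.6 to 14.9 in wild-type samples. Of these 10, 5 were lower at that p (against 15.4% of all genes) and 4 were lower without overlap (against 7.63%). Liver bud markers (7 of 10 tested, with Ttr, Apoa1 and Apob not tested) spanned 12.3 to 16.7 and 14.0 to 16.3. All 7 were below 0 (median -0.99), 3 were lower at that p and 2 were lower without overlap. Foregut markers (10 of 10 tested) spanned 16.5 to 16.9 and 16.3 to 17.4. Erythrocyte markers (8 tested) spanned 16.3 to 18.9 and 16.4 to 18.3, and neural tube markers (6 of 10, without Sox1, Olig2, Dbx1 and Nkx2-2) spanned 11.6 to 12.3 and 10.4 to 13.5. The part of these cells in the members' difference was not tested.

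The parts of complex I had medians of opposite sign with VSN. The catalytic core, which holds the flavin and the iron-sulfur clusters, had 5 of its 7 nuclear genes below 0 (median -0.22), while 23 of 29 accessory genes were above 0 (median 0.25). With percentile scaling the core median was 0.16 and the accessory median 0.63, so that the sign of the core turned. Relative to all genes, the core lay at -0.08 with VSN, -0.02 with percentile scaling and -0.19 with quantile normalization, and the accessory genes at 0.38, 0.45 and 0.11. With the probe gap as a covariate the medians were -0.25 for the core and -0.12 for the accessory genes, within array label 1 they were -0.28 and -0.0058, and without Tbx5+/- 1 they were -0.17 and 0.46. The difference between the parts was not tested. Of the core genes, Ndufv1, which binds NADH, differed by -0.38 (SE 0.20), and Ndufs7, an iron-sulfur subunit, by 0.29 (SE 0.19).

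Ndufs4, an accessory subunit of the electron input arm whose loss causes Leigh-like disease in mice, read 13.59, 14.87, 15.60 and 15.10 in Tbx5+/- 1, 5, 6 and 7 and 13.78, 14.01, 13.87 and 13.69 in wild-type. Tbx5+/- 1 lay below all wild-type samples and the other Tbx5+/- samples above all of them. The difference was 0.95 (SE 0.37, limma adjusted p = 0.205), and 1.35 without Tbx5+/- 1 (adjusted p = 0.00886). It was 0.11 with the probe gap as a covariate (adjusted p = 0.886) and 0.33 within array label 1.

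Ndufb11, an accessory subunit of the membrane arm encoded on the X chromosome, read 14.71, 15.77, 16.40 and 15.88 in Tbx5+/- and 15.004, 14.56, 15.03 and 14.46 in wild-type. Here Tbx5+/- 1 lay among the wild-type samples. The difference was 0.93 (SE 0.34, limma adjusted p = 0.194), and 1.25 without Tbx5+/- 1 (adjusted p = 0.0145). With the gap covariate it was 0.24, and within array label 1 it was 0.46. 

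Ndufa11, an accessory subunit of the membrane arm, was the member with the smallest p of all brightest probes. Its levels were 9.36, 9.08, 8.80 and 8.92 in Tbx5+/- and 10.26, 10.14, 9.37 and 10.19 in wild-type. All Tbx5+/- samples lay below all wild-type samples, though Tbx5+/- 1 and wild-type 6 were close. The difference was -0.95 (SE 0.24, limma adjusted p = 0.112; exact two-sided permutation p = 0.0286, the smallest that 70 assignments of unpaired arrays allow). Over the 4 same-numbered pairs, all of them lower, the exact permutation p was 0.125, the smallest that 16 assignments allow; this test was added after the data were seen. With the gap covariate the difference was -0.58 (adjusted p = 0.302). Blocking on the replicate number gave an adjusted p of 0.0349. Its second probe, which overlaps the first on the genome and so is no separate measurement, differed by -0.82 (SE 0.22). Ndufa10, another accessory gene, differed by -0.72 (SE 0.27, adjusted p = 0.197).

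Complex II, which also works in the tricarboxylic acid cycle and is the only complex encoded wholly in the nucleus, had the lowest median of the 5 complexes with VSN (-0.38, which is -0.24 relative to all genes). Its median was -0.18 relative to all genes with percentile scaling and -0.28 with quantile normalization. It was -0.061 with the gap covariate and -0.056 for the mean of all tested probes of a gene. Sdhc, a membrane anchor, read 11.68, 11.49, 10.498 and 11.44 in Tbx5+/- and 11.99, 12.39, 11.78 and 12.07 in wild-type. The groups did not overlap (difference -0.78, SE 0.28, limma adjusted p = 0.190). The exact permutation p was 0.0286 over unpaired arrays and 0.125 over the 4 pairs. With the gap covariate the difference was -0.40.

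Sdha, the flavoprotein that oxidizes succinate, read 11.87, 11.54, 10.83 and 11.41 in Tbx5+/- and 12.40, 12.24, 11.69 and 12.07 in wild-type. The groups overlapped only at Tbx5+/- 1 and wild-type 6. The difference was -0.69 (SE 0.26, limma adjusted p = 0.199), with an adjusted p of 0.0431 under the replicate block. It was -0.23 with the gap covariate. Another probe of Sdha differed by -0.45 (SE 0.20), and a dim one, well above background on 2 of 4 Tbx5+/- arrays, by -0.13 (SE 0.52). Sdhb, the iron-sulfur subunit, differed by -0.06 (SE 0.20), and Sdhd, the other anchor, by 0.49 (SE 0.31). Sdhd was 12.44 to 13.97 in wild-type samples, a range that took in all 4 Tbx5+/- values.

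**Figure D3:**
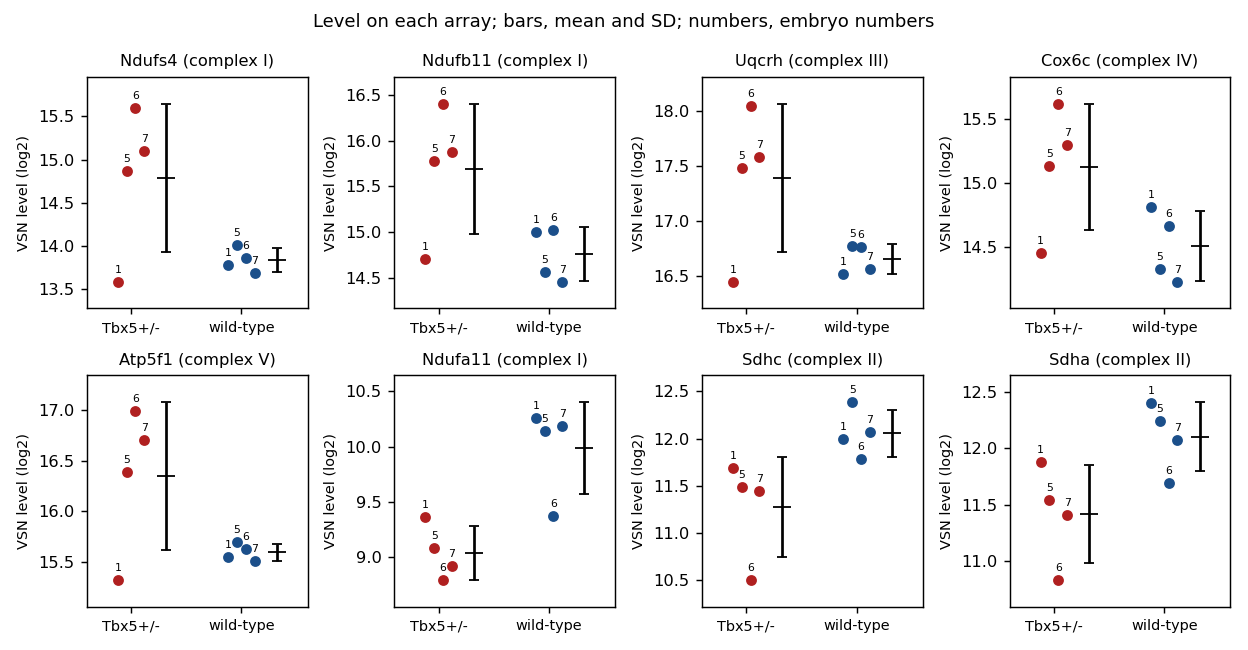
VSN level (log2, vertical axes, each panel with its own range that does not start at 0) of 8 members on each array, with embryo numbers; bars are mean and SD of 4 arrays per group. In the panels of Ndufs4, Ndufb11, Uqcrh, Cox6c and Atp5f1 Tbx5+/- 1 lies among or below the wild-type samples, and in those of Ndufa11 and Sdhc the groups do not overlap.

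In complex III, 6 of 7 genes were above 0 with VSN. Cyc1, the cytochrome c1 of this complex, falls outside the name rule and was lower, as given below. Uqcrh, the acidic hinge protein that binds cytochrome c1, read 16.45, 17.48, 18.05 and 17.58 in Tbx5+/- and 16.51, 16.78, 16.76 and 16.56 in wild-type. Tbx5+/- 1 was the lowest of the 8 values. The difference was 0.74 (SE 0.31, limma adjusted p = 0.217), and 1.05 without Tbx5+/- 1 (adjusted p = 0.0139). With the gap covariate it was 0.048, and within array label 1 it was 0.32. Its second probe differed by 0.77. Uqcrb, a small subunit, differed by 0.57 (SE 0.28). Uqcrc2, a core protein, differed by -0.21 (SE 0.20), which was 0.18 with percentile scaling.

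In complex IV, 15 of 19 genes were tested. Of the 10 broadly expressed nuclear subunits, 8 were above 0 with VSN (median 0.48). The median was 0.85 with percentile scaling, 0.17 with quantile normalization, 0.76 without Tbx5+/- 1 and -0.017 with the gap covariate. Cox6c read 14.46, 15.14, 15.62 and 15.29 in Tbx5+/- and 14.82, 14.34, 14.66 and 14.23 in wild-type (difference 0.61, SE 0.27, limma adjusted p = 0.223). Tbx5+/- 5, 6 and 7 lay above all wild-type samples and Tbx5+/- 1 among them. The difference was 0.84 without Tbx5+/- 1 (adjusted p = 0.0322) and 0.16 with the gap covariate. Cox7a2 differed by 0.55 (SE 0.25), Cox7b by 0.67 (SE 0.33) and Cox6b1 by -0.30 (SE 0.19), which was 0.02 with percentile scaling.

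Several subunits of cytochrome c oxidase exist as a broadly expressed form and a form of heart and skeletal muscle, lung or testis. Cox4i2, Cox7b2 and Cox8c, forms known from lung or testis, were well above background on 0 of 8 arrays, and Cox8b, a muscle form, on 1 wild-type array. Of the pairs in which both forms were tested, Cox6a1 differed by 0.54 (SE 0.29; -0.01 with quantile normalization) and its muscle form Cox6a2 by -0.22 (SE 0.42; 0.14 with percentile scaling). The testis form Cox6b2 differed by -0.30 (SE 0.46; 0.01 with quantile normalization). Cox7a1, the muscle form, had the largest positive difference of all members (1.14, SE 0.53, limma adjusted p = 0.239).

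Cox7a1 read 10.76, 12.81, 13.56 and 12.88 in Tbx5+/- and 11.44, 11.10, 11.996 and 10.94 in wild-type. Tbx5+/- 1 was the lowest of all 8 and the other Tbx5+/- values the highest of them. Without Tbx5+/- 1 the difference was 1.72 (adjusted p = 0.0124), and with the probe gap as a covariate it was -0.12. Cox4i1, Cox8a, Cox7a2l and Ndufa4 differed by 0.57 (SE 0.30), 0.31 (SE 0.25), 0.15 (SE 0.21) and 0.17 (SE 0.21). In the same order they differed by 0.86, 0.52, 0.27 and 0.32 without Tbx5+/- 1, and by -0.041, -0.17, -0.10 and -0.13 with the gap covariate.

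In complex V, 11 of 17 genes were above 0 with VSN. The median of the complex relative to all genes was 0.36 with VSN, 0.43 with percentile scaling and -0.01 with quantile normalization. Atp5f1, the b subunit of the peripheral stalk, read 15.32, 16.39, 16.99 and 16.70 in Tbx5+/- and 15.55, 15.69, 15.63 and 15.51 in wild-type. Tbx5+/- 1 was again the lowest of the 8. The difference was 0.76 (SE 0.33, limma adjusted p = 0.220), and 1.099 without Tbx5+/- 1 (adjusted p = 0.0114). It was 0.038 with the gap covariate and 0.23 within array label 1. Atp5d, the delta subunit of the F1 stalk, differed by -0.24 (SE 0.26), which was 0.12 with percentile scaling.

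The 3 genes Atp5g1, Atp5g2 and Atp5g3 encode the same c-ring protein of the ATP synthase membrane part. Atp5g1 differed by -0.12 (SE 0.18), Atp5g2 by 0.11 (SE 0.16) and Atp5g3 by 0.35 (SE 0.23), and none passed an adjusted p of 0.05 in limma. Atp5g3 differed by 0.56 without Tbx5+/- 1 (limma adjusted p = 0.0387) and by 8.4e-05 with the gap covariate. Atp5sl (now Dmac2), which is not a subunit of ATP synthase, read 10.33, 10.54, 8.998 and 9.81 in Tbx5+/- and 10.80, 11.001, 10.20 and 10.65 in wild-type. The groups overlapped (difference -0.74, SE 0.34, limma adjusted p = 0.231), with an adjusted p of 0.0495 under the replicate block.

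Probes of a gene did not always give the same answer. Of 23 members with several tested probes, the differences lay within 0.3 of each other in 12 and had opposite signs in 8. The widest were Cox4nb (-0.33 and -1.68), Atp5b and Ndufv3. The first 30 of the 60 bases of the probes of Atp5b, the catalytic beta subunit of ATP synthase, and of Ndufv3, a small accessory subunit of complex I, are given as listed with the arrays, in the order of the gene on mm9, to show that they read separate stretches.
Atp5b A_52_P553841: aatgccattggagaacttattgatgagaga
Atp5b A_51_P207636: catggtggttactctgtatttgctggtgtt
Atp5b A_52_P328078: acaagagccttgattgaagatgtgatgttc
Ndufv3 A_52_P170054: gtctacagagtcagagaagagtgcaaagga
Ndufv3 A_52_P175897: agtttctgcaaaagagaaggccaaggtcca
Ndufv3 A_51_P140211: gtgccagaaggaggctcccaggtccaggag

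The Atp5b probes lie on chromosome 10 of mm9, plus strand. The upstream probe (from 127521478) differed by -0.50 (SE 0.21), the middle one (from 127522569) by -0.49 (SE 0.23) and the 3′ one (from 127527255), which is the brightest, by 0.53 (SE 0.25), or 0.77 without Tbx5+/- 1 (limma adjusted p = 0.0206) and 0.033 with the gap covariate. The 3′ probe read 16.54, 17.35, 17.71 and 17.46 in Tbx5+/- and 16.64, 16.75, 16.71 and 16.84 in wild-type. Tbx5+/- 1 lay below all wild-type samples and the other Tbx5+/- samples above all of them. The Ndufv3 probes lie on chromosome 17, plus strand. The upstream one (from 31658570) differed by 0.26 (SE 0.24), the middle one (from 31664691) by -0.58 (SE 0.21) and the 3′ one (from 31665148) by -0.41 (SE 0.18). In both downstream probes the groups did not overlap. The order along the gene was thus opposite in these genes. Over the 19 members with probes at least 100 bases apart, the 3′ probe had the higher difference in 11 (57.9%, median 0.08), against 68.6% of 4292 other genes (median 0.22).

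**Figure D4:**
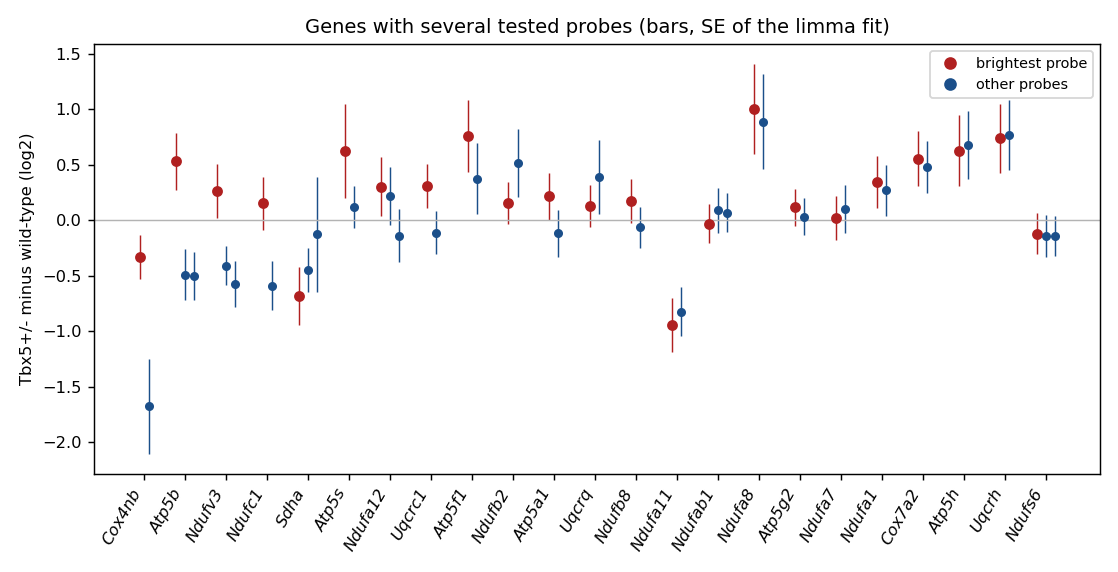
Difference between the groups (log2, vertical axis) for every tested probe of the 23 members with several, ordered by the spread between probes; bars are the SE of the limma fit and red points the brightest probe. Probes of Atp5b (0.53, -0.49 and -0.50) and Ndufv3 (0.26, -0.58 and -0.41) lie on both sides of 0, and those of Ndufa11 and Uqcrh lie together.

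The promoters of these genes are known to hold sites of the factors NRF1, GABPA (an ETS factor) and YY1. In the RefSeq windows of 250 bases before to 50 after a start (GRCm38.p6), 71 of 86 members had 77 promoters. On either strand the NRF1 core GCGCATG stood in 16.9% of them (4.802% of 21263 promoters of all protein-coding genes), the ETS letters CCGGAAG in 22.1% (11.6%), the YY1 letters ATGGCGG in 16.9% (5.25%) and the ERR letters AAGGTCA in 10.4% (4.08%). The SP1 letters GGGCGG stood in 41.6% (46.2%) and CCAAT in 42.9% (38.2%). These are descriptions of letters and not of binding. Parts of 5 promoters are shown 5′ to 3′ on the gene's strand, with the NRF1 or ETS letters in capitals. Of the 5 genes they head, only Ndufa11 had a difference below 0. They begin 80 (Uqcrh), 83 (Sdhd), 197 (Cox6a1), 80 (Atp5g2) and 95 (Ndufa11) bases before the start. Where capitals run to GCGCATGCGC, matches on both strands overlap.
Uqcrh (ETS), chr4:116075071-116075150, minus strand: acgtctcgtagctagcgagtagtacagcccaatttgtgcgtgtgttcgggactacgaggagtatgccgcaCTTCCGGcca
Sdhd (ETS), chr9:50603853-50603932, minus strand: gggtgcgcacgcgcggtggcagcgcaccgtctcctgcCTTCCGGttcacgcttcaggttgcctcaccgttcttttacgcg
Cox6a1 (NRF1), chr5:115349076-115349155, minus strand: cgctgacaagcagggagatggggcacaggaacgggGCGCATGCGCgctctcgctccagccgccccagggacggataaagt
Atp5g2 (NRF1), chr15:102671048-102671127, minus strand: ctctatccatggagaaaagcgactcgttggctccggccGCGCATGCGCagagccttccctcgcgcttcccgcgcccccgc
Ndufa11 (NRF1), chr17:56717667-56717746, plus strand: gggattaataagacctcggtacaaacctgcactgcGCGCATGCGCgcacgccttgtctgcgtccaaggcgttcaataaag

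The same NRF1 letters thus head Ndufa11, with a difference of -0.95, and Cox6a1, with 0.54. The ETS letters shown head Uqcrh (0.74) and Sdhd (0.49), both above 0.

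Genes around the chain were read from lists outside the rule. Both mitochondrially encoded genes on the array were tested. The probe for cytochrome c oxidase II, listed as COX2, read 15.66, 17.06, 17.47 and 17.19 in Tbx5+/- and 16.26, 16.44, 16.36 and 16.46 in wild-type (difference 0.46, SE 0.35, limma adjusted p = 0.426). As in Ndufs4, Uqcrh and Atp5f1, Tbx5+/- 1 lay below the wild-type samples and the other Tbx5+/- samples above them. CYTB, the cytochrome b of complex III, differed by 0.07 (SE 0.46).

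Of 17 tested electron carriers and related genes, 0 passed an adjusted p of 0.05 in limma, with 2 lower and 0 higher at an unadjusted p under 0.05 (median 0.27 relative to all genes). In this and the lists that follow, the shares of all genes at that p were 15.4% lower and 4.11% higher. Cyc1, the cytochrome c1 of complex III, did not overlap between the groups (difference -0.53, SE 0.21), and Cycs, cytochrome c, differed by 0.42 (SE 0.21). Of 15 assembly factors outside the rule, 2 were lower and 1 was higher at that p (median 0.06 relative to all genes). Foxred1, a complex I assembly factor, differed by -0.94 (SE 0.31), with an adjusted p of 0.0403 with the replicate block in limma, and Atpaf1, of ATP synthase, by 0.58 (SE 0.26).

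Of 16 tricarboxylic acid cycle genes, 2 were lower and 1 was higher at that p (median 0.19 relative to all genes). Ogdh differed by -1.45 (SE 0.52; limma adjusted p = 0.190, and 0.0337 with the replicate block), and Suclg1 by 0.82 (SE 0.29). Of 14 tested regulators of mitochondrial biogenesis, 1 was lower and 2 were higher at that p (median -0.06 relative to all genes). Ppargc1b, a transcriptional coactivator, differed by -1.12 (SE 0.25; limma adjusted p = 0.0959, and 0.0384 with the replicate block), with no overlap between the groups while only 2 Tbx5+/- arrays gave it a signal well above background. Tfam, which packages mitochondrial DNA, differed by 0.81 (SE 0.30), and its other probes by 0.40 and -0.03.

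**Figure D5:**
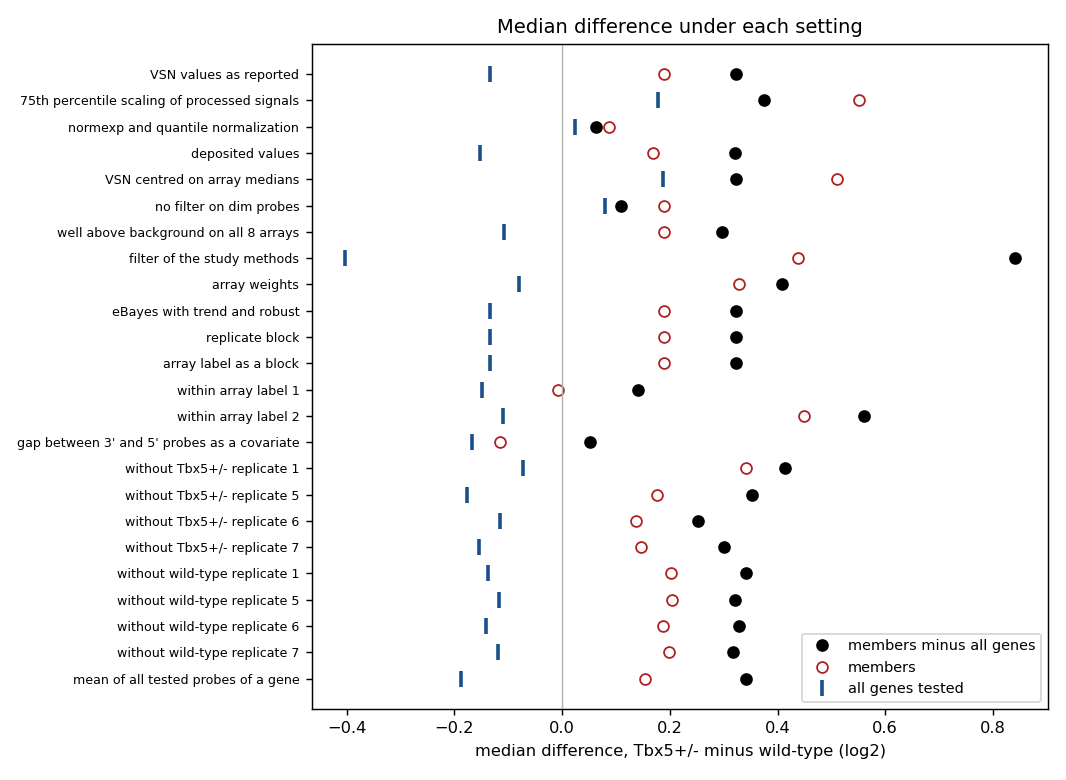
Median difference (log2, horizontal axis) of the tested members, of all genes tested, and of the members minus all genes, under each setting (vertical axis). The members' median relative to all genes is above 0 in every setting shown and lies between 0.05, with the probe gap as a covariate, and 0.84, with the study's filter.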

How the data were processed

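Cy3-labelled RNA of 8 samples was hybridized to 1-colour Agilent arrays with 60-base probes. The deposited scanner files hold intensity values of Agilent Feature Extraction 10.5.1.1 (the submitters' processing notes), and the log2 values of a second deposited table were made by the authors with background correction and VSN. Median local background was subtracted from mean signals, 1115 outlier spots were left out, 245 repeated probes were averaged, and VSN was programmed in R 4.3.3 (r with the deposited values at least 0.9999 on each array). A probe was tested when well above background on all 4 arrays of a group (20031 probes, 13950 genes). limma 3.58.1 compared the groups, with Benjamini-Hochberg adjustment over all probes. A gene was represented by its brightest tested probe. On simulated data with 200 of 20024 probes changed, limma recovered 28 at a log2 change of 1 and 163 at 2. The number of arrays limits the precision, and p-values measure only the spread between these pools.

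Deviations of same-numbered samples correlated at 0.438, 0.400, 0.593 and 0.137 (numbers 1, 5, 6 and 7). Differently numbered samples correlated at -0.599 to 0.372. The highest of these was Tbx5+/- 7 with wild-type 6, above the value of Tbx5+/- 7 with its own number. The numbers were taken as pairs in the replicate block and the paired permutation, and the other fits were unpaired. The labels do not say what the numbers share. Probe coordinates are the files' own (mm9). All 125 member probes matched current RefSeq names. Members and lists were chosen with earlier results of these data known. Named genes were the 2 with the smallest p in each direction per complex, called members, isoform families, the 3 genes with the widest probe differences, and 1 gene per direction in each list outside the rule. Ndufa8, Ndufs7, Ndufv1, Sdhb, CYTB and the markers were named after their values were seen.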

Additional observations from a re-analysis of the deposited data

Results flagged for a closer look

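Of 94 groups of 4 arrays examined among the named genes and the members' medians, 5 held 1 array far from the other 3; chance gives about 1 in 20. The members' median deviation from the wild-type mean was -0.31 in Tbx5+/- 1 against 0.31 to 0.41 in the other Tbx5+/- arrays (gap over range 0.867), and Cycs read 15.51 there against 16.18 to 16.31 (0.835). Ndufa11 read 9.37 in wild-type 6 against 10.14 to 10.26 in the other wild-type arrays (0.867). In wild-type 1, Cox8a read 15.06 against 15.28 to 15.30 (0.901), and Atp5g2 read 14.67 against 14.56 to 14.57 (0.897).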

How the results depend on the processing

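Of 166 summary values under 24 alternatives, 109 stayed close to those reported, 29 counts were larger, 15 counts were smaller and 13 medians moved. A median moved when its sign changed or it shifted by at least the SD between arrays of a group (0.24, or 0.19 relative to all genes). The number of members called was 1 with the study's filter and with SAM on it, 45 with array weights, 4 with the replicate block, and 0 to 29 leaving out 1 array, the 29 without Tbx5+/- 1. Members lower at an unadjusted p under 0.05 numbered 1 with percentile scaling, 1 with centred VSN, 9 with array weights, 1 within array label 1 and 1 to 6 leaving out 1 array; members higher numbered 41, 37, 44, 11 with the replicate block, 0 within label 1, 24 within label 2, 0 with the probe gap as a covariate and 0 to 38 leaving out 1 array. The members' median was 0.55 with percentile scaling, 0.51 with centred VSN, 0.44 with the study's filter and with SAM, -0.0080 within label 1, 0.45 within label 2 and -0.12 with the gap covariate. Relative to all genes it was 0.063 with quantile normalization, 0.11 without a filter, 0.84 with the study's filter and with SAM, 0.56 within label 2 and 0.053 with the gap covariate. Members lower without overlap numbered 0 with percentile scaling and centred VSN, 4 with the study's filter and SAM, 13 and 14 within labels 1 and 2, 5 for the mean of all probes and 2 to 8 leaving out 1 array; members higher without overlap numbered 10 with percentile scaling, 7 with centred VSN, 1 with quantile normalization, 1 without a filter, 1 and 52 within labels 1 and 2 and 0 to 41 leaving out 1 array. Shares over all genes were not computed for the counts without overlap under these alternatives. They were also not computed for the counts at an unadjusted p with centred VSN, array weights, the replicate block, within labels or leaving out 1 array. Within a label and without 1 array, fewer arrays are compared, so groups separate more easily. These counts are thus not read as results about the members. The cause of these changes was not tested.

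Of 935 values of 40 named genes, 34 changed sign, all with a difference whose adjusted p was above 0.05 as reported. With percentile scaling these were Uqcrc2 0.18, Cox4nb 0.026, Cox6b1 0.017, Atp5d 0.12, Cox6a2 0.14 and Atp5g1 0.26; with centred VSN Uqcrc2 0.12, Cox6b1 0.019, Atp5d 0.084, Cox6a2 0.10, Cox6b2 0.018 and Atp5g1 0.20; with quantile normalization Cox6b1 0.054, Cox6a1 -0.011, Cox6b2 0.010 and Atp5g3 -0.030. With the gap covariate they were Atp5d 0.089, Cox4i1 -0.041, Cox6a1 -0.078, Cox7a1 -0.12, Cox7a2l -0.10, Cox8a -0.17, Ndufa4 -0.13, Ndufv3 -0.19 and COX2 -0.33. Within label 1 they were Atp5d 0.13, Cox7a2l -0.22, Ndufa4 -0.11 and Ndufv3 -0.061, and for the mean of all probes Atp5b -0.16 and Ndufv3 -0.24. Cox6a2 was 0.28 with array weights, 0.066 within label 2 and -0.48 to 0.19 leaving out 1 array, the highest without Tbx5+/- 1.

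Signal over background limited Cox4i2, Cox7b2, Cox8b and Cox8c, which have no measured difference, and the dim probes of Cox4nb, Sdha and Ppargc1b, which were not well above background on every Tbx5+/- array.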
